A study of Homo sapiens with 16 samples.

Results

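Pre-mRNA splicing was followed here through 54 genes for splicing factors, of 60719 gene identifiers in the count tables. The list gives them by gene name, and each symbol matched exactly 1 identifier. They comprise 13 SR proteins and SR-like proteins, 19 heterogeneous nuclear ribonucleoproteins (hnRNPs, with PTBP1), 11 Sm and other snRNP proteins, 8 SF3 and U2AF factors and 3 genes of arginine methylation (PRMT5, PRMT1 and WDR77). RNA came from MDA-MB-231, a line of human breast cancer cells of the triple-negative kind, either unedited (parental 231) or with TXNIP, an inhibitor of glucose uptake, deleted with Cas9 (231:TKO). Both populations were sequenced untreated, with 2 replicates each, and with 3 replicates each after 48 hours with a non-targeting siRNA (siNT) or an siRNA against Myc (siMyc), which gave 16 libraries in 6 groups. The study asked which transcripts depend on TXNIP, which depend on Myc, and whether Myc dependence differs when TXNIP is gone. The 231:TKO cells came from clones grown out of single cells, so an effect of TXNIP loss and a difference between a clone and the parental population cannot be told apart. The labels number the replicates but do not say how they were cultured, so p-values measure only the spread between these samples.

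Splicing removes introns from pre-mRNA in the spliceosome. Most of its small nuclear RNAs are clamped by a ring of Sm proteins, which is assembled in the cytoplasm after PRMT5 and its partner WDR77 have methylated arginines in several Sm tails. The U1 snRNP recognises the start of the intron, and the U2AF heterodimer and the SF3A and SF3B complexes of the U2 snRNP recognise its end and its branch point. SR proteins mostly bind exons and recruit these particles, whereas hnRNPs coat the nascent transcript and often repress exons, and PRMT1 methylates the glycine- and arginine-rich stretches of several hnRNPs. Myc is known to activate several of these genes, PRMT5 and PTBP1 among them.

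Total counts lay between 18953668 and 59799444 per library. TXNIP was measured at 276 and 277 CPM (read counts relative to the library total, scaled by the TMM method over all 16 libraries) in parental 231 and at 12.7 and 46.5 in 231:TKO, and MYC went from 124, 147 and 134 to 58.8, 58.5 and 57.9 in 231:TKO and from 123, 125 and 129 to 64.8, 64.9 and 67.3 in parental 231 when siMyc replaced siNT. All 5 markers taken as high in this line (VIM, CD44, AXL, KRT18 and MSN) were abundant in the 6 groups. Of 5 luminal or epithelial markers, ESR1, PGR and GRHL2 were at or near 0, CDH1 had group means from 0.33 to 8.83 CPM and EPCAM from 11.9 to 23 CPM. The headers of the count tables show single reads in the untreated libraries and read pairs in the siRNA-treated libraries, and a later Ensembl release (104) in the 6 siRNA-treated parental 231 libraries than in the others (102). The exonic length differs between these releases for 5 of the 54 genes, SRSF8, HNRNPF, HNRNPH3, HNRNPL and SNRPD2.

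Of the siRNA-treated libraries, parental 231+siNT replicate 1 and parental 231+siMyc replicate 3 stood apart from the other 4 of their population and deviated from their group means in the same way. Their deviations correlated at 0.88 across 13408 genes with at least 1 CPM, while each correlated negatively with every other parental 231 siRNA library. The 11 Sm and snRNP genes were all above their group mean in both libraries, with a median deviation of 0.30 on the log2 scale in each. The SF3 and U2AF factors had median deviations of -0.15 and -0.02. SNRPD2 shows the size of it, with 316, 192 and 195 CPM in parental 231+siNT and 185, 176 and 256 in parental 231+siMyc. Counts of called genes that rest on these libraries are given with and without them, as are the tests of several single genes. The pair was picked after seeing the data. Calls and p-values with a factor for it, or without it, do not allow for that choice.

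Every one of the 54 genes passed the filter on low counts (more than 5 counts summed over the libraries compared) in each comparison, and the lowest value of any of them was 16.4 CPM, for SNRPG. Divided by exonic length, parental 231+siNT held most RNA from SNRPB, at 330 ± 58.4 CPM per kb (SD, n = 3), followed by SNRPD2 at 162 ± 49.1 and SNRPC at 159 ± 26.3. The hnRNPs HNRNPK, HNRNPF, HNRNPC and HNRNPAB followed, at 122, 118, 118 and 114 CPM per kb. At the other end stood SRSF8 at 11.6 ± 0.221, SRSF4 at 9.96 ± 0.716 and HNRNPUL2 at 9.6 ± 0.357 CPM per kb. Of the 53 neighbouring pairs in this order, 45 did not differ by more than their combined SD. Some levels differed between untreated and siRNA-treated libraries. HNRNPA1, which has 74 named pseudogenes, was at 117 and 123 CPM in untreated parental 231 and at 671, 627 and 668 in parental 231+siNT. For HNRNPA1, 1.22% of the counts on the gene and its pseudogenes fell on the pseudogenes, and for SNRPG, with 20 pseudogenes, 16.84%. Between the same groups SNRPE went from 21.5 and 23.3 to 113, 72.2 and 73.2 CPM, and HNRNPC from 328 and 326 to 961, 809 and 807. HNRNPH1 went the other way, from 630 and 655 to 214, 244 and 189 CPM. Levels are therefore not compared across read types, and whether the counting causes these differences was not tested.

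Myc knockdown lowered most of these genes in 231:TKO cells. With siMyc, 41 of the 54 were lower than with siNT, 1 was higher (HNRNPH2) and 12 did not pass the threshold, an adjusted p-value of at most 0.05 in edgeR's quasi-likelihood test, adjusted by the Benjamini-Hochberg method over all genes. Of all 22450 genes tested, 13.9% were lower and 13.3% higher. The median log2 fold change of the 54 was -0.25, beside a median of 0 for the 13406 genes with at least 1 CPM, of which 49.6% were negative. The groups did not overlap in 44 of the 54 on the low side and in 1 on the high side, shares that were 19.8% and 18.9% over all genes tested. The changes were small in size, from -0.66 to 0.27. In 1 fit of all 12 siRNA-treated libraries, whose shared spread includes that of the parental 231 libraries, 15 were lower and 1 higher. The share of all genes called in that fit was not computed. Counts are relative to each library's total, so less RNA of these genes and more RNA of others cannot be told apart, nor can fewer expressing cells and less RNA per cell.

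**Figure D1:**
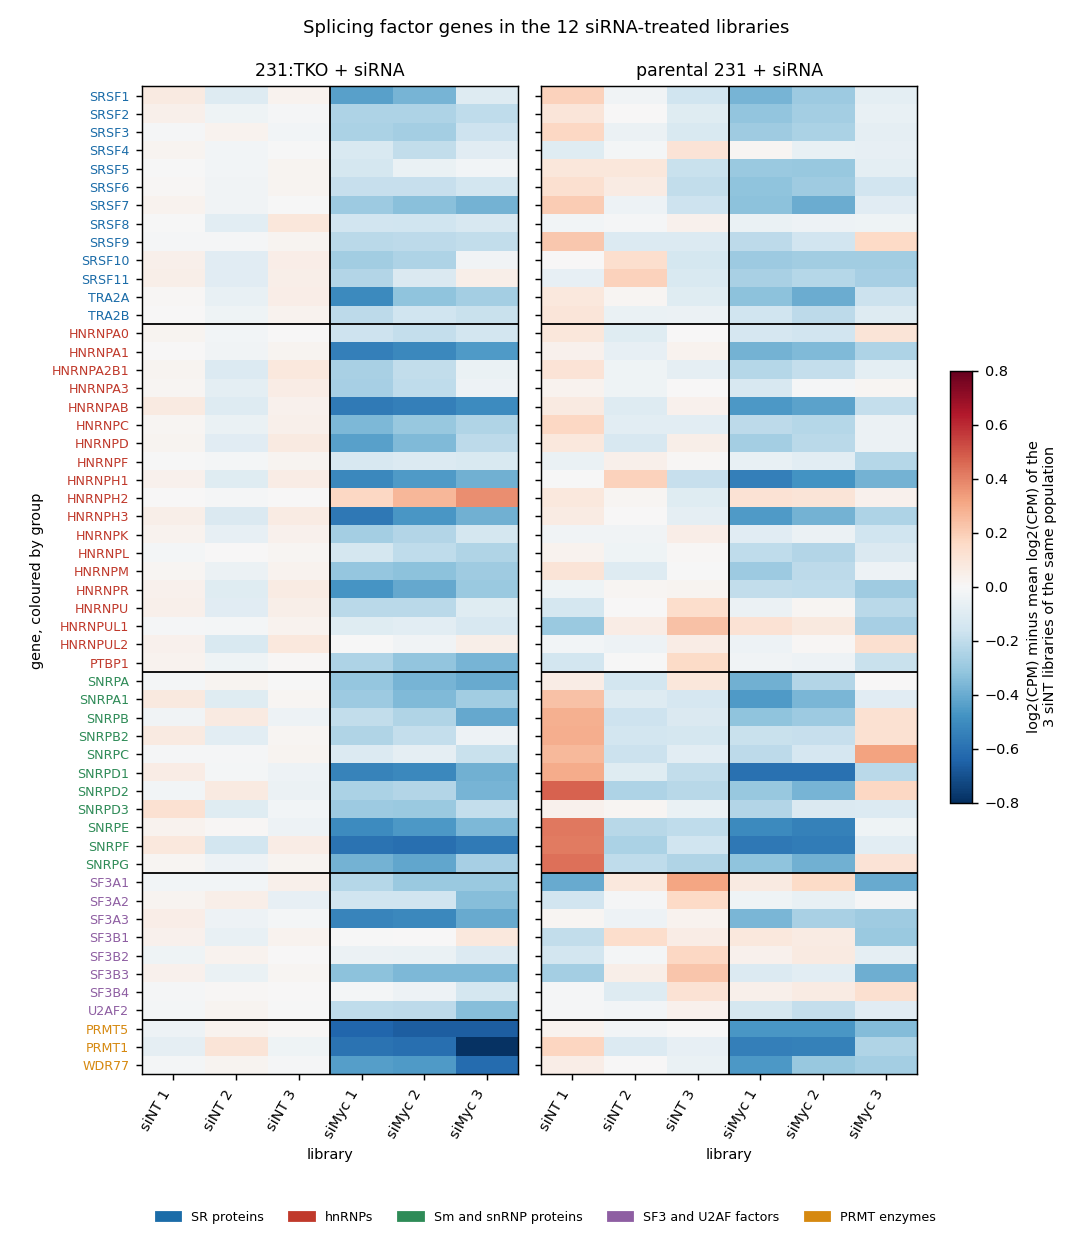
Each row is a gene and each column a siRNA-treated library. Colour gives log2(CPM) minus the mean log2(CPM) of the 3 siNT libraries of the same population, and gene names are coloured by group. In 231:TKO the 3 siMyc columns are blue in 41 genes that passed the test, and HNRNPH2 is the 1 gene that rose. In parental 231 the columns siNT 1 and siMyc 3 stand apart, most clearly in the Sm and snRNP proteins.

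The 3 methylation genes all fell, and their median log2 fold change of -0.64 was the lowest of the 5 groups. PRMT5 (ENSG00000100462, chromosome 14 from 22920525 to 22929408 on GRCh38), the enzyme that makes symmetric dimethylarginine on Sm proteins, stood at 172, 180 and 178 CPM in 231:TKO+siNT and at 114, 112 and 112 in 231:TKO+siMyc, a log2 fold change of -0.64 (SE 0.05, adjusted p = 2.74e-09). PRMT1 (ENSG00000126457, chromosome 19 from 49675786 to 49689029), which makes most asymmetric dimethylarginine in cells, went from 176, 199 and 181 to 123, 122 and 107 CPM, a log2 fold change of -0.66 (SE 0.06, adjusted p = 3.6e-08). WDR77, the partner that helps PRMT5 bind its substrates, went from 48.1, 49.4 and 48.4 to 35.8, 35.5 and 31.7 CPM, a log2 fold change of -0.50 (SE 0.06, adjusted p = 2.46e-06). In all 3 genes the highest siMyc library lay below the lowest siNT library.

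Of the 11 Sm and snRNP genes, 9 fell and the median log2 fold change was -0.31. SNRPF, an Sm ring protein, fell most, from 58.5, 49.7 and 57.5 to 36.6, 36.3 and 37.2 CPM, with a log2 fold change of -0.59 (SE 0.06, adjusted p = 5.68e-07). SNRPD1, whose product is one of the Sm proteins that PRMT5 methylates, was at 117, 111 and 109 CPM with siNT and at 77.5, 78.6 and 86.1 with siMyc (log2 fold change -0.47, SE 0.06, adjusted p = 1.46e-06). SNRPE, another ring protein, was at 91.4, 90.2 and 86.9 against 63.1, 65.1 and 69.8 CPM (log2 fold change -0.44, SE 0.06, adjusted p = 3.55e-06). None of these 3 genes had overlapping groups. SNRPB, which encodes the paired B and B′ proteins of the ring, moved less, from 238, 256 and 236 to 212, 206 and 183 CPM (log2 fold change -0.28, SE 0.06, adjusted p = 0.000623). SNRPD3 was at 44.2, 38 and 40.1 against 33.3, 33.1 and 35.6 CPM (log2 fold change -0.26, SE 0.07, adjusted p = 0.00489). SNRPD2 was at 168, 179 and 165 against 143, 145 and 132 CPM (log2 fold change -0.28, SE 0.05, adjusted p = 0.000242), and SNRPG fell by 0.35 on the log2 scale. Among proteins specific to a particle, SNRPA of U1 fell by 0.36 and SNRPA1 of U2 was at 60.1, 53.3 and 57.6 against 46.5, 44.6 and 47 CPM (log2 fold change -0.31, SE 0.06, adjusted p = 0.00046). SNRPC of U1 and SNRPB2 of U2 did not pass the threshold, with log2 fold changes of -0.12 (SE 0.05, adjusted p = 0.0742) and -0.15 (SE 0.06, adjusted p = 0.0857).

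Of the 13 SR genes, 9 fell, with a median log2 fold change of -0.18, and all 13 estimates were negative. TRA2A, an SR-like activator of exons rich in GAA repeats, was at 49.3, 47.1 and 50.9 CPM with siNT and at 34.5, 39.3 and 40.6 with siMyc, a log2 fold change of -0.36 (SE 0.07, adjusted p = 0.000229). SRSF7, which also takes part in mRNA export and polyadenylation, was at 130, 125 and 127 against 104, 101 and 97.8 CPM (log2 fold change -0.33, SE 0.05, adjusted p = 2.63e-05). SRSF1, the prototype of the family and a known oncoprotein, was at 131, 116 and 127 against 92, 96.4 and 116 CPM (log2 fold change -0.29, SE 0.07, adjusted p = 0.00303). The SRSF7 groups were fully apart, while the highest siMyc library of SRSF1 reached the lowest siNT library. SRSF2, which binds exonic enhancers and is mutated in myeloid neoplasms, was at 197, 187 and 190 against 161, 161 and 166 CPM (log2 fold change -0.23, SE 0.05, adjusted p = 0.000712). SRSF3, the smallest SR protein, was at 349, 358 and 346 against 294, 291 and 313 CPM (log2 fold change -0.23, SE 0.05, adjusted p = 0.00083). TRA2B, the paralog of TRA2A, was at 194, 189 and 197 against 167, 173 and 171 CPM (log2 fold change -0.18, SE 0.05, adjusted p = 0.00635), and the groups of these 3 genes did not overlap either. SRSF6 was at 128, 125 and 129 against 112, 112 and 115 CPM (log2 fold change -0.17, SE 0.05, adjusted p = 0.0107), and SRSF9 and SRSF10 fell by 0.21 and 0.18 on the log2 scale. SRSF4, SRSF5, SRSF8 and SRSF11 had log2 fold changes of -0.13, -0.07, -0.15 and -0.10 and did not pass the threshold.

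Of the 19 hnRNP genes, 15 fell, 1 rose and 3 did not pass the threshold, and the median log2 fold change was -0.21. HNRNPAB, an A/B-type hnRNP, was at 250, 222 and 244 CPM with siNT and at 161, 163 and 168 with siMyc, a log2 fold change of -0.54 (SE 0.05, adjusted p = 9.78e-08). HNRNPA1, a repressor of exon inclusion and one of the most abundant hnRNPs, was at 695, 679 and 704 against 475, 485 and 506 CPM (log2 fold change -0.50, SE 0.05, adjusted p = 4.49e-08). HNRNPA2B1, which also packages RNA into exosomes, was at 988, 903 and 1030 against 811, 848 and 936 CPM (log2 fold change -0.17, SE 0.06, adjusted p = 0.0317), and its groups overlapped where those of the other pair did not. HNRNPD, which binds AU-rich elements, was at 287, 265 and 297 against 209, 221 and 244 CPM (log2 fold change -0.33, SE 0.06, adjusted p = 0.000165). HNRNPU, a scaffold protein of the nuclear matrix, was at 553, 505 and 554 against 462, 463 and 501 CPM (log2 fold change -0.17, SE 0.05, adjusted p = 0.0124). PTBP1, the polypyrimidine tract binding protein that favours the PKM2 form of pyruvate kinase, was at 437, 419 and 431 against 362, 345 and 332 CPM (log2 fold change -0.31, SE 0.05, adjusted p = 3.53e-05). These 3 genes had no overlap between their groups.

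Within the H and F family, which binds G-rich RNA, the members went different ways. HNRNPH1 was at 312, 285 and 318 CPM with siNT and at 213, 223 and 233 with siMyc (log2 fold change -0.45, SE 0.05, adjusted p = 1.27e-06), and HNRNPH3 fell by 0.47. HNRNPH2, on chromosome X from 101408222 to 101414133, was at 117, 116 and 117 CPM with siNT and at 131, 140 and 151 with siMyc (log2 fold change 0.27, SE 0.05, adjusted p = 0.000624), with every siMyc library above every siNT library. HNRNPF did not pass the threshold (log2 fold change -0.12, SE 0.04, adjusted p = 0.0542). The rise of HNRNPH2 was 0.27 with DESeq2's size factors too. Of the other members, HNRNPR, HNRNPM, HNRNPC, HNRNPK, HNRNPL, HNRNPA0 and HNRNPA3 fell by 0.39, 0.30, 0.30, 0.21, 0.19, 0.17 and 0.16. HNRNPUL1 and HNRNPUL2, relatives of HNRNPU, had log2 fold changes of -0.10 and 0.01.

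Myc with its partner MAX binds the E-box CACGTG, which reads the same on both strands and was the only motif searched for. RefSeq promoters on GRCh38.p14, from 250 bases before to 50 bases after the annotated start, were matched for 49 of the 54 genes. The E-box was found in 8 of the 49 (16.3%) and in 2548 of all 35116 promoters (7.3%). The 49 are 1 promoter per gene and all from expressed genes. The 35116 were limited in neither way, so the 2 shares are not from like sets. It was found in 6 of 18 hnRNP promoters, 1 of 7 SF3 and U2AF promoters and 1 of 3 methylation genes, and in 0 of 11 SR and 0 of 10 Sm and snRNP promoters. With siMyc, 5 of the 8 genes with the E-box fell and 31 of the 41 without it, and the median log2 fold change was -0.23 in both sets. The E-boxes that lie before the start are printed here in capitals with their flanks, because the genes that carry them include both the 1 hnRNP that rose and hnRNPs that fell. Those of HNRNPUL1 and WDR77 lie 23 and 10 bases after it.

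HNRNPH2 first E-box (chrX:101408153-101408212, plus strand, 42 bases before the start): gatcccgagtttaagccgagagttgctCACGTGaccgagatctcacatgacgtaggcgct
HNRNPH2 second E-box (chrX:101408186-101408221, plus strand, 9 bases before the start): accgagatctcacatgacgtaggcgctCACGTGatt
HNRNPH3 (chr10:68331616-68331675, plus strand, 50 bases before the start): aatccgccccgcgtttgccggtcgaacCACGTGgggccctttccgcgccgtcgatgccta
HNRNPM (chr19:8444906-8444965, plus strand, 42 bases before the start): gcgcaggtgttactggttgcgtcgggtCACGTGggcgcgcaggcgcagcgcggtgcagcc
HNRNPD (chr4:82373992-82374045, minus strand, 27 bases before the start): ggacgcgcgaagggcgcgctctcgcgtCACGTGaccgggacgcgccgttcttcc
HNRNPA3 (chr2:177212696-177212755, plus strand, 71 bases before the start): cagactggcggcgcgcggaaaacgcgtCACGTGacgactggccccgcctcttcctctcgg
SF3B1 (chr2:197435104-197435163, minus strand, 108 bases before the start): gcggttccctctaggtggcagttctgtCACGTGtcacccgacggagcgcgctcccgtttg

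Of these genes, HNRNPH3, HNRNPD, HNRNPM and HNRNPA3 fell with siMyc, HNRNPH2 rose, and SF3B1 had a log2 fold change of 0.03. A match to these letters is a description of the sequence and does not show that Myc binds there.

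Of the 8 SF3 and U2AF genes, 5 fell and the median log2 fold change was -0.23. SF3A3, of the SF3A complex, was at 132, 124 and 126 CPM with siNT and at 88.4, 89.1 and 96.1 with siMyc, a log2 fold change of -0.48 (SE 0.05, adjusted p = 6.33e-07). SF3B3, a scaffold of the SF3B complex, was at 198, 187 and 196 against 154, 151 and 151 CPM (log2 fold change -0.34, SE 0.05, adjusted p = 1.04e-05). U2AF2, the subunit that binds the polypyrimidine tract, was at 291, 299 and 294 against 256, 255 and 233 CPM (log2 fold change -0.25, SE 0.05, adjusted p = 0.000553). Groups did not overlap in any of the 3, and SF3A1 fell by 0.28. SF3A2 was at 73.7, 74.8 and 69.2 against 64.8, 65 and 57.3 CPM (log2 fold change -0.22, SE 0.06, adjusted p = 0.0092). SF3B1, the subunit that holds the branch point and a frequent target of cancer mutations, did not pass the threshold. It was at 343, 321 and 341 CPM with siNT and at 334, 336 and 355 with siMyc, with overlapping groups and a log2 fold change of 0.03 (95% confidence interval -0.07 to 0.13). SF3B2 and SF3B4 did not pass the threshold either, with log2 fold changes of -0.07 and -0.06.

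**Figure D2:**
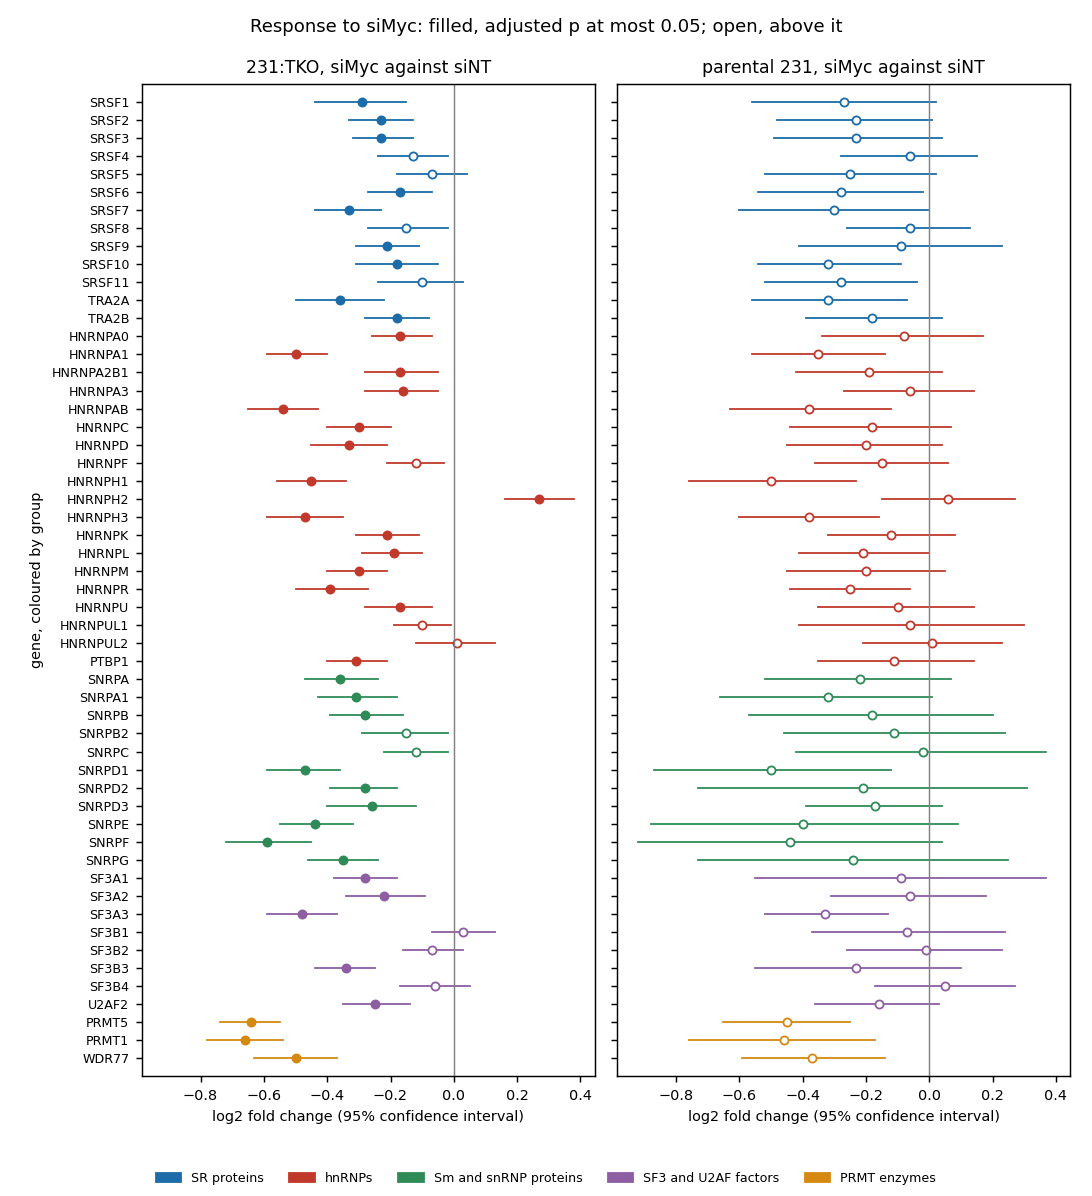
Log2 fold change of each gene with siMyc against siNT, in 231:TKO on the left and parental 231 on the right. Lines are 95% confidence intervals, filled points have an adjusted p of at most 0.05 and colours give the group. The intervals in parental 231 are wider, and 51 of the 54 estimates are negative in each population.

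The rest of the splicing machinery was read through 11 further lists of genes, whose counts stand beside the 13.9% of all genes called lower and 13.3% called higher. In 231:TKO cells, 12 of 17 genes of the SMN complex and snRNP assembly fell with siMyc and 0 rose, led by GEMIN5 (-0.86), which recognises snRNA, and RIOK1 (-0.85), a partner of PRMT5. The exon junction complex and its associated genes had 10 of 11 lower, PNN by 0.39 and MAGOH by 0.37. Of the U4/U6.U5 tri-snRNP genes, 10 of 17 fell, with PPIH at -0.50 and EFTUD2, the GTPase of U5, at -0.48. The U1 and U2 accessory genes had 9 of 17 lower, with PHF5A at -0.40, and the LSM proteins, relatives of the Sm proteins, 8 of 13, with LSM11 at -0.45. The helicases and step factors had 9 of 17 lower and 1 higher (SLU7, 0.16). Other regulators of splicing had 17 of 32 lower, led by FUBP1 (-0.53), and 2 higher, CELF2 (0.23) and MBNL2 (0.19). In the Prp19 complex 5 of 15 fell, with PPIL1 at -0.52, and in the minor spliceosome 2 of 9. Of the kinases of SR proteins, 2 of 10 fell, HIPK2 (-1.09) and SRPK1 (-0.34), and 1 rose, SRPK3 (1.72). The SRPK3 estimate was imprecise, with an SE of 0.6 beside a median SE of 0.06 for the 10 kinases. Of the other PRMT enzymes, 3 of 6 fell, with PRMT3 at -0.81, and PRMT2 rose (0.25). Whether one list differed from another was not tested.

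In parental 231 cells most estimates were negative as well, but none of the 54 genes passed the threshold. All 6 libraries together gave 0 of 54 called by edgeR's quasi-likelihood test, beside 0.24% of 23728 genes called higher and 0.354% called lower. At an unadjusted p under 0.05 there were 15, beside 14.6% of all genes, and DESeq2 called 7, all lower, beside 4.34% of the 14527 genes to which it gave an adjusted p. The estimates were negative for 51 of the 54, with a median of -0.20 beside 0 for genes with at least 1 CPM, and the groups did not overlap in 21 of them, all lower, where 11.1% of all genes tested had such a gap downwards and 10.2% upwards. PRMT5 was at 188, 182 and 184 CPM with siNT and at 134, 134 and 145 with siMyc (log2 fold change -0.45, SE 0.09, adjusted p = 0.0735). PRMT1 was at 284, 233 and 241 against 172, 173 and 213 CPM (log2 fold change -0.46, SE 0.13, adjusted p = 0.147), and WDR77 at 52.4, 50.6 and 48.6 against 36.8, 40.9 and 41.8 CPM (log2 fold change -0.37, SE 0.10, adjusted p = 0.135). In each of the 3 the siMyc libraries all lay below the siNT libraries. Without the pair that stood apart, the log2 fold changes were -0.48 (SE 0.05, adjusted p = 8.55e-06) for PRMT5, -0.49 (SE 0.05, adjusted p = 9.05e-06) for PRMT1 and -0.39 (SE 0.06, adjusted p = 0.000405) for WDR77. Of the pathway genes, RIOK1 (-0.60, adjusted p = 0.0438) and PRMT3 (-0.71, adjusted p = 0.0378) were lower with siMyc.

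The pair of libraries that stood apart was picked from these same data because it deviated. A smaller spread and more calls with it set aside therefore follow in part from that choice. The common biological coefficient of variation over the genes tested was 15.5% with the 6 libraries, 4.5% with a factor for the pair and 4.74% without them, against 5.26% in 231:TKO. With the factor, 36 of the 54 genes were lower and 0 higher, beside 13.1% and 13.7% of all genes tested. Without the pair, 34 were lower and 0 higher, beside 10.9% and 9.94%. The median log2 fold change was -0.20 with the factor and -0.21 without the pair. With the factor, 10 of 13 SR genes, 11 of 19 hnRNPs, 9 of 11 Sm and snRNP genes, 3 of 8 SF3 and U2AF genes and all 3 methylation genes were lower. SNRPD1 was at 124, 94.4 and 88.1 CPM with siNT and at 66.8, 66.9 and 87 with siMyc, so each group held 1 high library. Its log2 fold change was -0.50 (SE 0.16, adjusted p = 0.214) with the 6 libraries and -0.48 (SE 0.05, adjusted p = 2.29e-05) without the pair. SNRPE was at 113, 72.2 and 73.2 against 59.2, 57.8 and 82.3 CPM, with -0.40 (SE 0.21, adjusted p = 0.451) and, without the pair, -0.35 (SE 0.05, adjusted p = 0.000225). HNRNPH1 was at 214, 244 and 189 against 147, 154 and 165 CPM (log2 fold change -0.50, SE 0.12, adjusted p = 0.101), and had an adjusted p of 0.0511 with the factor and 0.0496 without the pair.

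**Figure D3:**
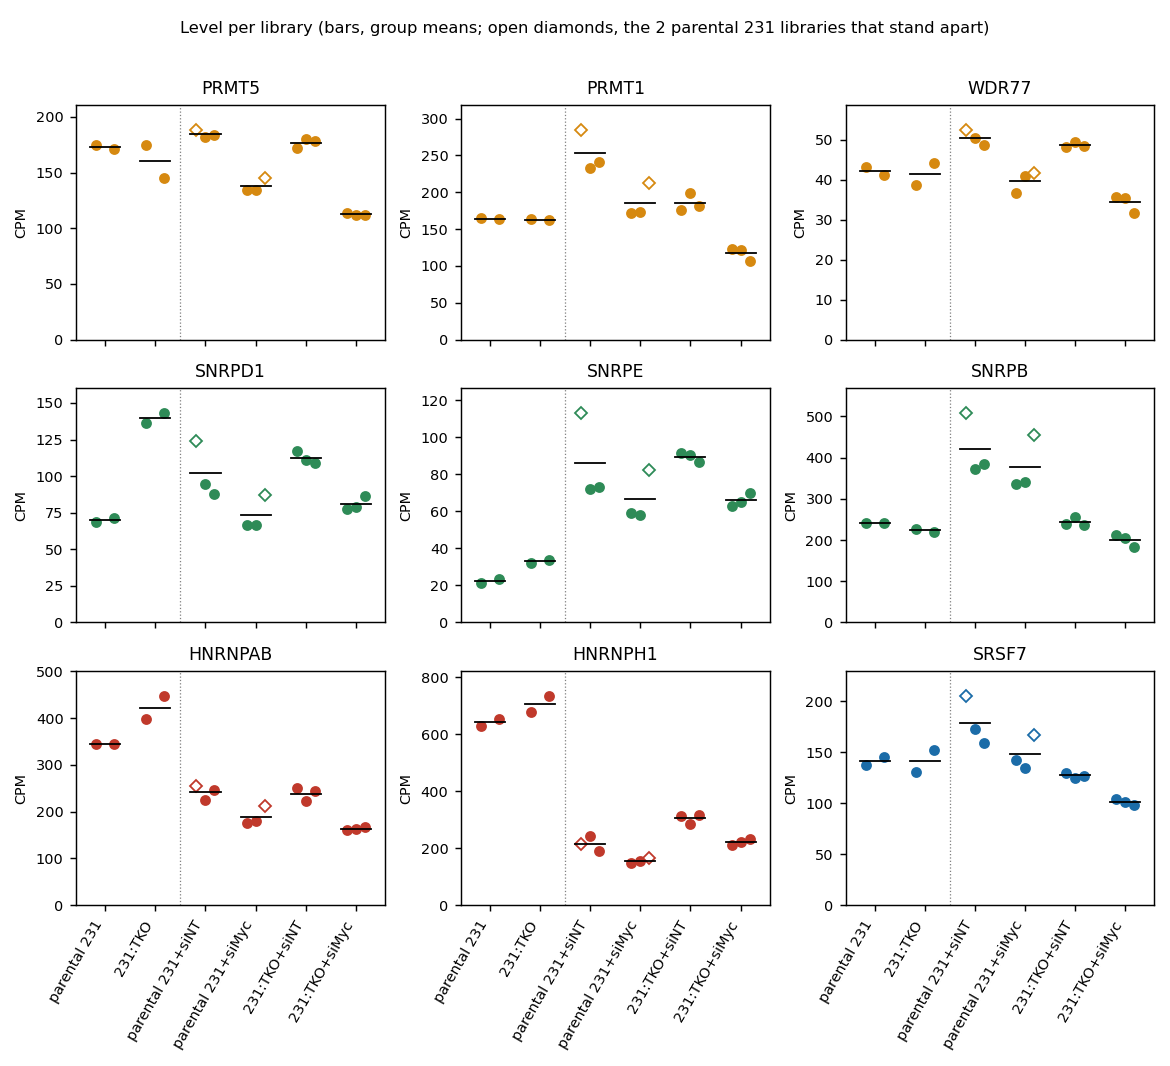
CPM of 9 genes in every library, with a point per library and a bar at the group mean. Open diamonds are parental 231+siNT replicate 1 and parental 231+siMyc replicate 3. The siMyc points of 231:TKO lie below its siNT points in all 9 genes. The dotted line parts the untreated libraries, counted as single reads, from the siRNA-treated ones, counted as read pairs.

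The other genes given in every library for 231:TKO read as follows in parental 231. SRSF1 was at 132, 114 and 104 CPM with siNT and at 89.6, 95.1 and 110 with siMyc (log2 fold change -0.27, SE 0.13, adjusted p = 0.374). SRSF2 was at 243, 227 and 212 against 182, 188 and 218 CPM (log2 fold change -0.23, SE 0.11, adjusted p = 0.376), and SRSF3 at 490, 423 and 402 against 358, 367 and 416 CPM (log2 fold change -0.23, SE 0.11, adjusted p = 0.42). The siMyc library inside the pair overlapped the siNT libraries in all 3, and without the pair all 3 were lower, SRSF1 at -0.28 (SE 0.05, adjusted p = 0.00216), SRSF2 at -0.28 (SE 0.05, adjusted p = 0.00105) and SRSF3 at -0.22 (SE 0.05, adjusted p = 0.00487). SRSF7 stood at 205, 173 and 159 against 142, 135 and 167 CPM, and TRA2B at 208, 187 and 188 against 174, 168 and 181 CPM, the latter without overlap. Among hnRNPs, HNRNPA1 was at 671, 627 and 668 against 503, 513 and 552 CPM and HNRNPAB at 254, 225 and 247 against 176, 180 and 212 CPM, and neither overlapped. HNRNPA2B1, at 1010, 913 and 891 against 801, 819 and 889 CPM, did not overlap, whereas HNRNPD, at 327, 282 and 318 against 255, 266 and 298 CPM, did. HNRNPU, at 461, 509 and 559 against 492, 514 and 438 CPM, and PTBP1, at 343, 379 and 424 against 374, 370 and 337 CPM, overlapped. HNRNPH2 was at 129, 123 and 114 against 132, 131 and 125 CPM, a log2 fold change of 0.06 (95% confidence interval -0.15 to 0.27). Of the snRNP genes, SNRPB was at 508, 373 and 385 against 335, 341 and 455 CPM, SNRPD3 at 51.4, 50.6 and 48.4 against 42.6, 46.2 and 46.5 CPM, and SNRPA1 at 58.4, 46.3 and 45.2 against 36.3, 38.6 and 46.7 CPM. The groups were apart in SNRPD3 only among these. SF3A3, at 127, 122 and 128 against 97.5, 105 and 103 CPM, and U2AF2, at 310, 308 and 320 against 283, 274 and 293 CPM, did not overlap, while SF3B3, at 138, 172 and 194 against 154, 157 and 127 CPM, and SF3B1, at 232, 292 and 276 against 282, 278 and 216 CPM, did.

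No difference between the responses of the populations passed the threshold. The interaction in 1 fit of the 12 siRNA-treated libraries called 0 of the 54 genes by edgeR and 0 by DESeq2, with 0 at an unadjusted p under 0.05, and 0% of 25812 genes were called in either direction. With the factor for the pair, 0.395% of all genes were called higher and 0.174% lower, and 0 of the 54. Without the pair, 0.0999% of 25019 genes were called higher and 0.152% lower, and 0 of the 54. The differences ranged from -0.17 to 0.24 and their 95% confidence intervals from -0.63 to 0.52. With the factor the intervals reached from -0.31 to 0.42, and without the pair from -0.42 to 0.42. The difference was -0.17 (95% confidence interval -0.39 to 0.05) for PRMT5, 0.05 (95% confidence interval -0.32 to 0.42) for SNRPD1 and 0.24 (95% confidence interval 0.00 to 0.48) for HNRNPH2. Across the 54 genes, the responses in 231:TKO and in parental 231, which share no library, had Pearson's r = 0.83 and Spearman's rho = 0.80, as a description over genes that are not independent. Both estimates were negative for 50 genes. In the interaction fit the difference, 231:TKO minus parental 231, was negative for 37, with a median of -0.05. With the factor for the pair, 33 genes were called lower in both, 80.5% of the 41 in 231:TKO and 91.7% of the 36 in parental 231. That factor was added after seeing the data, and without it 0 of the 54 were called in parental 231. The share of all genes called lower in both was not computed.

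Untreated 231:TKO cells were next set against untreated parental 231. In untreated cells 10 of the 54 genes were higher in 231:TKO than in parental 231 and 1 was lower (SRSF6), beside 5.43% of 19965 genes called higher and 4.18% called lower. The groups did not overlap in 26 genes on the high side and 14 on the low side, beside 29.2% and 28.6% of all genes tested. The median log2 fold change was 0.09, beside 0.01 for genes with at least 1 CPM. The Sm and snRNP genes held 4 of the 10. The CPM given here, scaled over 16 libraries, put 231:TKO higher than the scaling within these 4 libraries that the fold changes use, by a median of 0.07 on the log2 scale over the 54 genes. SRSF2 thus has higher CPM in 231:TKO and a log2 fold change of -0.04. With 1 of the 2 libraries of a group left out, the lone library is assumed to vary like the other group. The number of calls changed widely between such fits, so only effect sizes are given here. Of the 11 calls, 4 remained with a replicate block and 1 at an adjusted p of at most 0.01. The median log2 fold change was 0.06 and 0.09 without parental 231 replicate 1 or 2, and 0.12 and 0.02 without 231:TKO replicate 1 or 2. With the shift of neighbouring genes within 10 Mb taken out, 9 were higher and 3 lower, and the share over all genes was not computed.

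SNRPD1 (ENSG00000167088, chromosome 18 from 21612314 to 21633524) rose most, from 68.5 and 71.7 CPM in parental 231 to 136 and 143 in 231:TKO, a log2 fold change of 0.92 (SE 0.07, adjusted p = 0.00551). The other Sm genes that rose were SNRPF, from 32.8 and 32.3 to 50.5 and 56.2 CPM (log2 fold change 0.64, SE 0.09, adjusted p = 0.0186), and SNRPE, from 21.5 and 23.3 to 32.2 and 33.7 CPM (log2 fold change 0.48, SE 0.09, adjusted p = 0.0384). SNRPD2 was at 93.7 and 96 against 123 and 128 CPM (log2 fold change 0.33, SE 0.06, adjusted p = 0.0368). In these 4 genes both 231:TKO libraries lay above both parental 231 libraries on either scaling. SRSF8 was at 29.9 and 29.6 against 53.5 and 48.9 CPM (log2 fold change 0.71, SE 0.08, adjusted p = 0.0133), and SRSF6 at 245 and 237 against 206 and 205 CPM (log2 fold change -0.30, SE 0.06, adjusted p = 0.0388). Among hnRNPs, HNRNPD was at 350 and 341 against 508 and 578 CPM (log2 fold change 0.58, SE 0.08, adjusted p = 0.0205). HNRNPH3 was at 159 and 165 against 245 and 231 CPM (log2 fold change 0.48, SE 0.06, adjusted p = 0.0164), and HNRNPA3 at 114 and 113 against 155 and 151 CPM (log2 fold change 0.36, SE 0.06, adjusted p = 0.0251). SF3B1 was at 352 and 344 against 498 and 482 CPM (log2 fold change 0.42, SE 0.06, adjusted p = 0.0182), and SF3B2 at 324 and 324 against 412 and 415 CPM (log2 fold change 0.28, SE 0.06, adjusted p = 0.0439).

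Some of these rises were close in size to those of the genes around them. HNRNPA3 and SF3B1 both lie on chromosome 2, where the genes within 10 Mb had median log2 fold changes of 0.52 and 0.48, and around HNRNPD on chromosome 4 the median was 0.46. With these shifts taken out, the log2 fold changes were -0.11 for HNRNPA3, -0.04 for SF3B1 and 0.11 for HNRNPD, and the 3 calls were lost, as was that of SF3B2 at 0.13. The neighbours of SNRPD1, SNRPF, SNRPE and HNRNPH3 had medians of 0.12, 0.07, -0.01 and 0.01. SRSF8, which starts at base 95067197 of chromosome 11, kept its call with regional shifts taken out. CWC15, a gene of the Prp19 complex that starts at base 94962620 of that chromosome, also had a log2 fold change of 0.71. Whether these changes are related was not tested.

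**Figure D4:**
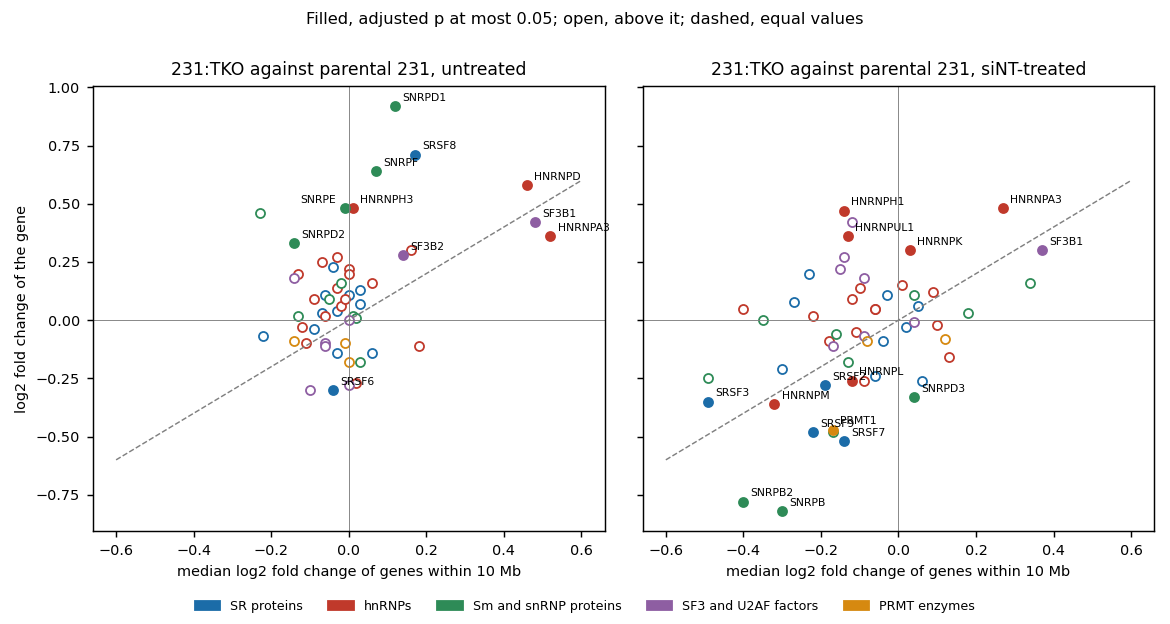
Log2 fold change of each gene in 231:TKO against parental 231 (vertical) and the median of the other genes within 10 Mb (horizontal), untreated on the left and siNT-treated on the right. Filled points have an adjusted p of at most 0.05, and the dashed line marks equal values. HNRNPA3 and SF3B1 lie near the line at the right of both plots, while SNRPD1 at 0.92 lies far above it in untreated cells.

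The methylation genes showed no call in untreated cells. PRMT5 was at 175 and 171 CPM in parental 231 and 175 and 145 in 231:TKO, a log2 fold change of -0.18 (95% confidence interval -0.43 to 0.07). PRMT1 was at 165 and 163 against 163 and 162 CPM (log2 fold change -0.09, 95% confidence interval -0.23 to 0.05), and WDR77 at 43.2 and 41.2 against 38.7 and 44.3 CPM (log2 fold change -0.10, 95% confidence interval -0.35 to 0.15). The named SR genes without a call were SRSF1 at 182 and 192 against 199 and 213 CPM, SRSF2 at 335 and 331 against 338 and 346, SRSF3 at 412 and 407 against 404 and 479, SRSF7 at 137 and 145 against 131 and 152, and TRA2B at 223 and 223 against 256 and 257. Of the hnRNPs, HNRNPA1 was at 117 and 123 against 134 and 143 CPM, HNRNPA2B1 at 1200 and 1240 against 1470 and 1590, HNRNPAB at 345 and 345 against 397 and 447, and PTBP1 at 615 and 602 against 573 and 624. HNRNPU was at 976 and 960 CPM in parental 231 and 881 and 1180 in 231:TKO, so its 231:TKO replicates lay on either side of parental 231. Of the snRNP genes, SNRPB was at 242 and 241 against 228 and 220 CPM, SNRPD3 at 62.3 and 58.8 against 61.8 and 73.4, and SNRPA1 at 23 and 24.6 against 25.9 and 24.9. SF3A3 was at 154 and 154 against 151 and 172 CPM, SF3B3 at 308 and 313 against 286 and 319, and U2AF2 at 230 and 229 against 281 and 265.

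The genes that rose with the knockout were then read against Myc knockdown, in libraries the comparisons do not share. Of the 10 genes higher in untreated 231:TKO, 7 fell with siMyc in 231:TKO (70.0%), and of the 54, 41 did (75.9%). The 3 without a call were SRSF8, SF3B1 and SF3B2. Of the pathway lists, read beside the 5.43% of all genes called higher and 4.18% called lower, the LSM proteins had 4 of 13 higher in untreated 231:TKO and 0 lower, with LSM6 at 1.22 and LSM3 at 0.51. The helicases and step factors had 3 of 17 higher, CWC22 at 0.63 first. The U1 and U2 accessory genes, the Prp19 complex and the SR protein kinases had 2 higher each, with HIPK2 at 1.45. The tri-snRNP genes had 2 higher and 1 lower, the other regulators, the other PRMT enzymes and the SMN list 1 lower each, and the exon junction complex and the minor spliceosome 0.

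The populations were compared in siNT-treated cells as well. In 231:TKO+siNT, 5 of the 54 genes were higher than in parental 231+siNT and 10 were lower, beside 16.1% of 23310 genes called higher and 20.7% called lower, with a median of -0.03. The groups did not overlap in 10 genes on the high side and 20 on the low side, beside 23.8% and 27.7% of all genes tested. Without parental 231+siNT replicate 1, 18 were higher and 15 lower, beside 22.4% and 25.8%, and without 231:TKO+siNT replicate 1 or 3 there were 9 and 8 calls in all. With regional shifts taken out, 10 were higher and 7 lower. Apart from the first of these settings, shares over all genes were not computed. SNRPB (ENSG00000125835, chromosome 20 from 2461634 to 2470853) was at 508, 373 and 385 CPM in parental 231+siNT and at 238, 256 and 236 in 231:TKO+siNT (log2 fold change -0.82, SE 0.12, adjusted p = 0.000291). SNRPB2, on the same chromosome, was at 108, 79.5 and 79.8 against 55.3, 49.7 and 53.2 CPM (log2 fold change -0.78, SE 0.12, adjusted p = 0.000507). Their neighbours had medians of -0.30 and -0.40, and both calls remained with the regional shifts taken out. All 15 calls remained without parental 231+siNT replicate 1, with SNRPB at -0.65, SNRPB2 at -0.60, PRMT1 at -0.36, SRSF7 at -0.39 and HNRNPM at -0.28. With regional shifts taken out 7 of the 15 were lost, SRSF2, SRSF3, SRSF9 at -0.24 (adjusted p = 0.112), HNRNPA3, HNRNPL, HNRNPM at -0.03 (adjusted p = 0.819) and SF3B1.

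SRSF7 was at 205, 173 and 159 CPM in parental 231+siNT and at 130, 125 and 127 in 231:TKO+siNT (log2 fold change -0.52, SE 0.10, adjusted p = 0.00213), and SRSF9 at 237, 189 and 189 against 149, 149 and 152 CPM (log2 fold change -0.48, SE 0.10, adjusted p = 0.00368). PRMT1 was at 284, 233 and 241 against 176, 199 and 181 CPM (log2 fold change -0.47, SE 0.10, adjusted p = 0.00354), with no overlap in any of the 3. HNRNPM was at 376, 326 and 350 against 283, 271 and 285 CPM (log2 fold change -0.36, SE 0.09, adjusted p = 0.00784), HNRNPL was at 280, 268 and 276 against 231, 234 and 237 CPM (log2 fold change -0.26, SE 0.08, adjusted p = 0.0243), and SRSF3, SNRPD3 and SRSF2 had log2 fold changes of -0.35, -0.33 and -0.28. On the high side, HNRNPA3 was at 260, 249 and 255 against 367, 344 and 379 CPM (log2 fold change 0.48, SE 0.08, adjusted p = 0.000903), and HNRNPH1 at 214, 244 and 189 against 312, 285 and 318 CPM (log2 fold change 0.47, SE 0.11, adjusted p = 0.00465). HNRNPUL1, HNRNPK and SF3B1 had log2 fold changes of 0.36, 0.30 and 0.30. HNRNPA3 and SF3B1 were the 2 genes called in untreated cells as well, and in both settings they lost the call once the shift of their neighbours on chromosome 2 was taken out. The siNT-treated populations also differ in annotation release and in total counts. For every gene these differences and the knockout cannot be told apart. For genes such as HNRNPL and SNRPD2 the exonic length counted differs as well.

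The difference between the knockout effects in siNT-treated and in untreated cells was tested in 1 fit of 10 libraries. It passed the threshold for 8 of the 54 genes, with 7 lower and 1 higher in siNT-treated cells, beside 7.91% called lower and 6.2% called higher of 25112 genes. SNRPD1 had knockout effects of 0.92 untreated and 0.11 with siNT, a difference of -0.81 (SE 0.18, adjusted p = 0.00803). SRSF8 had 0.71 and -0.21, a difference of -0.92 (SE 0.14, adjusted p = 0.000506), and its exonic length differs between the releases used. In siNT-treated cells SRSF8 was at 49.1, 49.6 and 51 CPM in parental 231 and 43.8, 41.4 and 46.9 in 231:TKO. HNRNPD had 0.58 and -0.16, a difference of -0.74 (SE 0.15, adjusted p = 0.00428). For SNRPB2 the effects were 0.01 and -0.78, a difference of -0.80 (SE 0.19, adjusted p = 0.009). For SRSF9 they were 0.23 and -0.48, a difference of -0.71 (SE 0.16, adjusted p = 0.00714). For SNRPB they were -0.18 and -0.82, a difference of -0.65 (SE 0.18, adjusted p = 0.0247). Untreated, SNRPB2 was at 74.3 and 73 CPM in parental 231 and 76.6 and 79.5 in 231:TKO, and SRSF9 at 129 and 136 against 165 and 162 CPM. HNRNPM, at 362 and 367 against 386 and 429 CPM untreated, had 0.09 and -0.36, a difference of -0.45 (SE 0.14, adjusted p = 0.0498). The 1 gene with a higher effect in siNT-treated cells was SF3A2, at 118 and 119 CPM in parental 231, 105 and 96.8 in 231:TKO, 52.9, 58.6 and 65.8 in parental 231+siNT and 73.7, 74.8 and 69.2 in 231:TKO+siNT, with effects of -0.30 and 0.27, a difference of 0.56 (SE 0.15, adjusted p = 0.0193). Without parental 231+siNT replicate 1 there were 20 such genes, 18 of them lower, and without 231:TKO+siNT replicate 1 there were 5. Leaving out parental 231 replicate 1 or 2 leaves 1 library in that group. The median difference of the 54 genes was -0.17 in both fits, with fewer calls. With regional shifts taken out 2 were higher and 2 lower, and shares over all genes were not computed for these settings. Those shifts taken out, the calls of SRSF9, HNRNPM, SNRPB, SNRPB2 and SNRPD1 were lost. Read type, siRNA treatment and annotation release changed together between these settings and cannot be told apart.

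**Figure D5:**
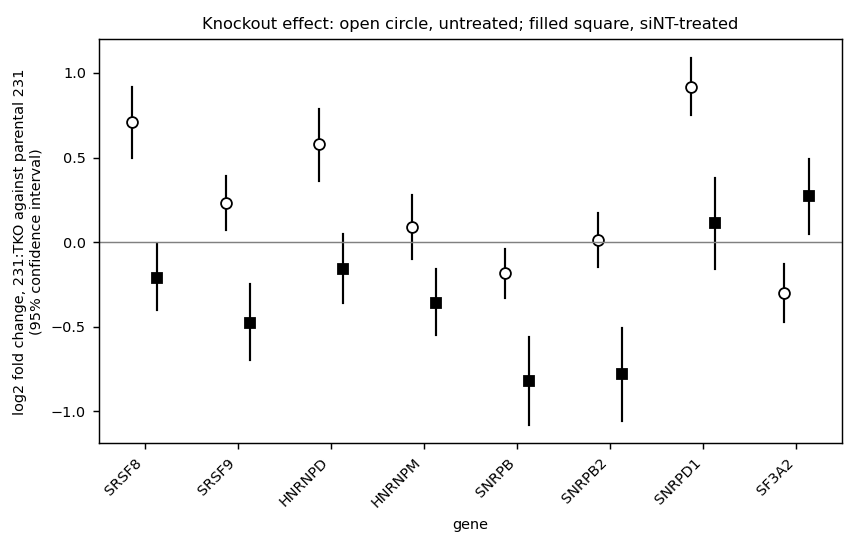
Log2 fold change of 231:TKO against parental 231 with 95% confidence intervals for the 8 genes whose knockout effect differed between untreated cells (open circles) and siNT-treated cells (filled squares). SNRPD1, SRSF8 and HNRNPD were at 0.92, 0.71 and 0.58 in untreated cells, and SNRPB and SNRPB2 at -0.82 and -0.78 in siNT-treated cells.

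With Myc depleted in both populations, 5 of the 54 genes were higher in 231:TKO+siMyc than in parental 231+siMyc and 17 were lower, beside 18.8% and 21.7% of 23561 genes, with a median of -0.08. The groups did not overlap in 9 genes on the high side and 23 on the low side, beside 25.9% and 27.8% of all genes tested. Here too annotation release and total counts differ between the populations, and for every gene they cannot be told apart from the knockout. Of the genes called lower, SRSF8, HNRNPL and SNRPD2 also differ in exonic length between the releases. SNRPB was at 335, 341 and 455 CPM in parental 231+siMyc and at 212, 206 and 183 in 231:TKO+siMyc (log2 fold change -0.90, SE 0.12, adjusted p = 6.05e-05), and SNRPB2 at 77.8, 77.7 and 95.8 against 44.6, 46.1 and 51.2 CPM (log2 fold change -0.82, SE 0.11, adjusted p = 6.68e-05). PRMT1 was at 172, 173 and 213 against 123, 122 and 107 CPM (log2 fold change -0.66, SE 0.11, adjusted p = 0.000277), and PRMT5 at 134, 134 and 145 against 114, 112 and 112 CPM (log2 fold change -0.28, SE 0.09, adjusted p = 0.0209). Neither methylation gene had overlapping groups. SRSF9 was at 176, 183 and 228 against 129, 130 and 131 CPM (log2 fold change -0.58, SE 0.11, adjusted p = 0.000698), SRSF7 at 142, 135 and 167 against 104, 101 and 97.8 CPM (log2 fold change -0.54, SE 0.10, adjusted p = 0.000731), and SRSF5, the 1 SR gene that was higher, at 62.7, 62.4 and 72.9 against 75.6, 80.3 and 82.1 CPM (log2 fold change 0.27, SE 0.10, adjusted p = 0.0416). HNRNPM was at 286, 303 and 340 against 226, 223 and 230 CPM (log2 fold change -0.45, SE 0.09, adjusted p = 0.00176), and HNRNPC at 741, 732 and 830 against 570, 593 and 620 CPM (log2 fold change -0.36, SE 0.09, adjusted p = 0.00566). Among the Sm and snRNP genes with the smallest called falls, SNRPC was at 169, 178 and 244 against 156, 160 and 149 CPM (log2 fold change -0.34, SE 0.13, adjusted p = 0.0485) and SNRPA at 49.6, 55 and 65 against 47.3, 45.2 and 44.3 CPM (log2 fold change -0.30, SE 0.11, adjusted p = 0.0419). HNRNPH1 was at 147, 154 and 165 against 213, 223 and 233 CPM (log2 fold change 0.53, SE 0.09, adjusted p = 0.000437), HNRNPA3 at 233, 253 and 257 against 302, 315 and 353 CPM (log2 fold change 0.39, SE 0.09, adjusted p = 0.00478), and SF3B1 at 282, 278 and 216 against 334, 336 and 355 CPM (log2 fold change 0.41, SE 0.11, adjusted p = 0.008). Without 231:TKO+siMyc replicate 1, 2 or 3 the number called was 12, 12 and 14, and with regional shifts taken out 10 were higher and 11 lower. Shares over all genes were not computed for these settings. Without parental 231+siMyc replicate 3, 13 were higher and 20 lower, beside 23.1% and 26.6% of all genes tested. All 22 calls remained without it, SNRPB at -0.74, SNRPB2 at -0.71, PRMT1 at -0.55 and PRMT5 at -0.24, while SNRPC went to -0.15 and SNRPA to -0.19. The regional shifts taken out, 9 of the 22 were lost, SRSF2, SRSF3, SRSF8, HNRNPL, SNRPA, SNRPC, HNRNPA3 at 0.08 (adjusted p = 0.531), HNRNPM at -0.13 (adjusted p = 0.252) and SF3B1 at 0.06 (adjusted p = 0.651).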

How the data were processed

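Stranded mRNA libraries from 16 samples were aligned by the authors with STAR to GRCh38 and counted per gene with featureCounts 1.6.3 on the reverse strand. The deposited values are raw read counts per gene, with no normalization, from single reads in the untreated libraries and from read pairs in the siRNA-treated ones. Per the file headers, Ensembl release 104 was used for the siRNA-treated parental 231 libraries and 102 for the others, so comparisons across them used the 60620 shared identifiers.

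Groups were taken from the sample labels. A gene needed over 5 counts in total across the libraries of a comparison and was then tested with edgeR 4.0.16 (quasi-likelihood test, TMM scaling, R 4.3.3), with Benjamini-Hochberg adjustment over all genes and a threshold of 0.05. Each comparison was fitted on its own libraries, and differences of effects as interactions. CPM shown were scaled over all 16 libraries. DESeq2 1.42.0, other filters and scalings, left-out replicates, a replicate block, thinning to the smallest library and removal of regional shifts (the median of genes within 10 Mb) were tried as alternatives. The fits were run on simulated data with larger changes than these genes showed. The simulated replicate spread was below that of most comparisons, so this does not check the fits at the spread seen here. A factor for 2 parental 231 libraries that stood apart, their removal, and regional shifts in the difference of Myc responses were added after seeing the data.

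The 54 genes and the further lists were chosen with earlier results of these data known. Values in every library are given for 23 genes of the main families, by a written rule, and for the genes with the lowest and highest called fold changes of each group. For the further lists the called genes with the largest changes were named. Total counts were 18953668 to 59799444 per library, and precision did not follow them alone. The median SE of the 54 genes for Myc knockdown was 0.11 in parental 231 and 0.05 in 231:TKO, whose libraries held fewer counts.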

Additional observations from a re-analysis of the deposited data

Results flagged for a closer look

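For 8 of the 54 genes the effect of TXNIP knockout differed between siNT-treated and untreated cells, by a test of the difference itself (edgeR's quasi-likelihood test, adjusted by the Benjamini-Hochberg method). The differences, siNT-treated minus untreated on the log2 scale, were -0.92 for SRSF8 (adjusted p = 0.000506), -0.81 for SNRPD1 (adjusted p = 0.00803), -0.80 for SNRPB2 (adjusted p = 0.009) and -0.74 for HNRNPD (adjusted p = 0.00428). They were -0.71 for SRSF9 (adjusted p = 0.00714), -0.65 for SNRPB (adjusted p = 0.0247), -0.45 for HNRNPM (adjusted p = 0.0498) and 0.56 for SF3A2 (adjusted p = 0.0193). Of 18 alternatives run, the calls of SRSF8 and HNRNPD remained under 18, those of SNRPD1 and SRSF9 under 16, that of SNRPB2 under 15, those of SNRPB and SF3A2 under 12 and that of HNRNPM under 5. Read type, siRNA treatment and annotation release changed together between the settings and cannot be told apart.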

How the results depend on the processing

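Counts of the 54 genes called moved with the libraries used. Leaving out 1 library, which in untreated cells leaves a lone library assumed to vary like the rest, gave 0 to 38 calls for the untreated knockout comparison (11 with all libraries), 34 to 47 for Myc knockdown in 231:TKO (42), 0 in each case for Myc knockdown in parental 231 (0), 8 to 33 for the siNT-treated knockout comparison (15), 12 to 33 for the siMyc-treated one (22) and 2 to 20 for the difference of knockout effects (8). A threshold of 0.01 gave 1, 8, 12 and 5 calls for the untreated, siNT-treated and siMyc-treated knockout comparisons and the difference of knockout effects. DESeq2 gave 7 for Myc knockdown in parental 231 and 14 for the difference of knockout effects. In parental 231, a filter of more than 5 counts in every library gave 1, a factor for the pair of libraries 36 and their removal 34. In 1 fit of the 12 siRNA-treated libraries, Myc knockdown gave 16 in 231:TKO and 10 in parental 231. With regional shifts taken out, the difference of knockout effects gave 4. The difference of Myc responses gave 0 in every setting run. Of the 42 calls with siMyc in 231:TKO, 16 remained under all alternatives and 18 were lost only in the fit of 12 libraries. The cause of these changes was not tested.

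Signs that turned are listed only for genes called with all libraries or in the alternative. Turned signs of genes called in neither are not listed. With 1 library left out, the untreated knockout effect of SRSF3 ranged from -0.10 (without 231:TKO replicate 2) to 0.14, and that of HNRNPU was -0.22 without 231:TKO replicate 2. With regional shifts taken out it was -0.11 for HNRNPA3 and -0.04 for SF3B1. In siNT-treated cells it ranged from -0.12 to 0.25 for SNRPF and from -0.17 to 0.21 for SNRPG, highest without parental 231+siNT replicate 1, and was 0.13 for SRSF3 and -0.05 for SF3B1 with regional shifts taken out. In siMyc-treated cells it was 0.18 for SNRPE without parental 231+siMyc replicate 3, and 0.16 for SRSF3, 0.38 for HNRNPU and 0.15 for SNRPC with regional shifts taken out.

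Whether replicate numbers pair the samples was not settled. The labels do not say, and not every sample correlated best with its own number. In 231:TKO, deviations of siNT replicate 3 correlated at 0.23 with siMyc replicate 3. Those of siNT replicate 2 correlated at 0.27 with siMyc replicate 1 and at 0.1 with siMyc replicate 2. With a replicate block, the calls numbered 4 for the untreated knockout comparison, 45 and 0 for Myc knockdown in 231:TKO and parental 231, 15 and 15 for the siNT-treated and siMyc-treated knockout comparisons, 0 for the difference of Myc responses and 7 for the difference of knockout effects.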
